A study of Mus musculus with 3 samples.

Results

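Cd226, Tigit and Cd96 encode the receptors CD226 (also called DNAM-1), TIGIT and CD96, which T cells and natural killer cells use to sense nectin-family ligands on neighbouring cells. These 3 genes were chosen by symbol, each was measured by 1 probe set carrying that symbol alone, and they are 3 of the 10191 genes with 1 symbol in the deposited table. Expression had been measured on 1 Affymetrix array for each of 3 CD8+ T cell populations, named CXCR3+ innate, CXCR3- innate and naive by the submitters. All 3 came from untreated C57BL/6 animals that carry a GFP reporter of the chemokine receptor CXCR3, the naive population included. The extraction protocol calls the animals CIBER mice, their age and sex are not given in the sources used here, and RNA was pooled from about 3 to 5 of them. Cells of spleen and lymph nodes were sorted on CD8, CD44, CD62L and, per the population names, the reporter. Innate is the submitters' word for the populations set apart from naive cells.

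CD226 is an activating receptor that works with the integrin LFA-1, whereas TIGIT carries inhibitory motifs in its cytoplasmic tail and CD96 is mostly described as inhibitory in mice. All 3 receptors bind CD155, the product of Pvr, and CD226 and TIGIT also bind CD112, the product of Nectin2. Because TIGIT competes with CD226 for CD155 and can disturb CD226 in the same membrane, the system is usually described as a balance between the activating and the inhibitory receptors.

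Tigit and Cd96 lie on the same chromosome and differed from naive cells in opposite directions, and for this reason the sequences upstream of both are shown. RefSeq windows of 2 of the 3 receptor genes, Tigit and Cd96, were searched, and no window of Cd226 was searched. The 250 bases before the annotated start of each gene are given 5′ to 3′ on the gene's strand, in the assembly GRCm38.p6, and capitals mark a match to the RUNX core. The Tigit window is chr16:43664185-43664434 on the minus strand, and the Cd96 window is chr16:46120249-46120498 on the minus strand.
Tigit: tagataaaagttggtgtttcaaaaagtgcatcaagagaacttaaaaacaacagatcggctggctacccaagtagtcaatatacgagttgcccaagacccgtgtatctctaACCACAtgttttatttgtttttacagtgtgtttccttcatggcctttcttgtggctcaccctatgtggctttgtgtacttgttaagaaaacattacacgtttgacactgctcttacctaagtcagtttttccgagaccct
Cd96: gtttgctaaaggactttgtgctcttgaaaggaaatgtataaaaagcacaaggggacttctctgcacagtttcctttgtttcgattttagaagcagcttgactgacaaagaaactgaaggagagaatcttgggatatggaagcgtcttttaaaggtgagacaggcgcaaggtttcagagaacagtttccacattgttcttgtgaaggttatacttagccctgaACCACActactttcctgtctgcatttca

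Each window held 1 match to the RUNX core, TGTGGT or its reverse complement ACCACA, 140 to 135 bases before the start in Tigit and 28 to 23 bases before it in Cd96. This core was present in 14.0% of the 32851 RefSeq windows of the same length. Neither window held the other letters searched on both strands. These were the T-box core TCACAC, present in 12.3% of windows, the TCF/LEF core CTTTGA, in 13.8%, the FOXO core GTAAAC, in 6.92%, and the ETS core AGGAAG, in 29.5%. The RUNX core was put in capitals because it was the only one with a match in either window, and Cd226 had no part in that choice. Read as ACCACA it shares the letters CACA with the T-box core, and a match is a description of the letters only. Runx3, a RUNX transcription factor of CD8+ T cells, was at 8.61, 8.42 and 8.81 in CXCR3+ innate, CXCR3- innate and naive cells.

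All levels below are log2 RMA expression values, a scale on which a difference of 1 is 2-fold. With 1 array per population there is no spread between replicates, no test and no p-value, and each statement describes these 3 arrays. A gene was called higher or lower by a rule of size, namely a difference of at least 1 with the higher value at or above that array's median over all genes, which was 7.65 for naive cells and 7.63 for each innate population. The RNA is that of sorted populations, so fewer cells carrying a transcript and less transcript per cell cannot be told apart. The labels were examined with the sort and lineage genes. Cd44, the adhesion receptor used in the sort, was at 8.30, 7.88 and 7.24 in CXCR3+ innate, CXCR3- innate and naive cells. Cxcr3 read 7.97, 7.82 and 7.57 in that order. Cd8a, a chain of the CD8 coreceptor, read 10.14, 9.77 and 10.43. Both sort genes therefore ran in the order of their labels, with a difference of only 0.15 in Cxcr3 between the innate populations. Equal values on all 3 arrays were found for 34.19% of probe sets, but none of the receptor genes was among them.

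Cd226, the activating receptor gene, read 8.77 in naive, 8.24 in CXCR3- innate and 7.71 in CXCR3+ innate cells. The values stepped down from naive to CXCR3- innate to CXCR3+ innate, with the CXCR3- innate array at 50.2% of the way. CXCR3+ innate cells were 2.09-fold lower than naive cells, a difference of -1.06, and 12 of 10191 genes (0.118%) had a difference as low or lower. The difference from naive cells was -0.53 in CXCR3- innate cells, where 253 genes (2.48%) were as low or lower. Between the innate populations it was -0.53 again, 1.44-fold lower in CXCR3+ innate cells, and there 25 genes (0.245%) were as low or lower. A step of almost the same log2 size thus stood at a more extreme place among all genes between the innate populations than between CXCR3- innate and naive cells. That place depends on the other genes of each comparison. With 1.5-fold as the threshold, 8 genes were called lower between the innate populations, against 163 in CXCR3- innate minus naive. The places were not recomputed after rescaling of the arrays.

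Cd226 was the only one of the 3 receptor genes past the rule of size, and passed it only as lower in CXCR3+ innate than in naive cells. In that comparison 0.0981% of all genes were called lower and 0.137% higher. The margin was narrow. After quantile normalization of the arrays the difference was -0.99, which ended the call. None of the 3 receptor genes passed in CXCR3- innate minus naive, where 0.226% of all genes were called lower and 0.0196% higher. None passed in CXCR3+ innate minus CXCR3- innate, where 0.00981% were called lower and 0.147% higher. The Cd226 value of 7.71 on the CXCR3+ innate array was close to 7.72, the median there of 541 olfactory and vomeronasal receptor genes, which T cells are not known to use and which passed the same lower limit of the table. Those are other probes, so that median is not the background of the Cd226 probe set.

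**Figure D1:**
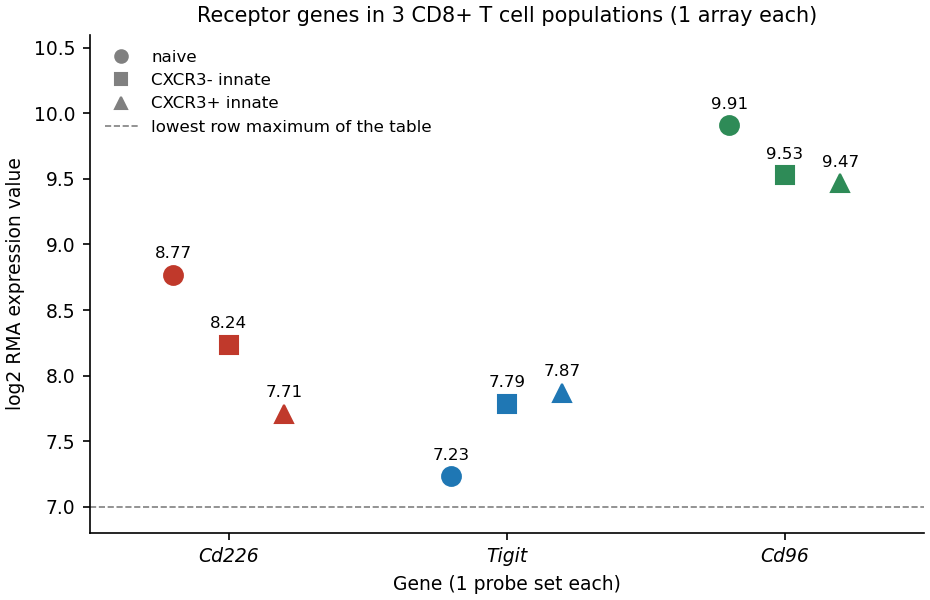
The log2 RMA expression value of each receptor gene is plotted for naive (circle), CXCR3- innate (square) and CXCR3+ innate (triangle) cells, 1 array each, so no error bars can be drawn. Cd226 steps down from 8.77 to 8.24 to 7.71, Tigit stands at 7.23 in naive cells against 7.79 and 7.87, and Cd96 stands at 9.91 against 9.53 and 9.47; the dashed line at 7 is the lowest row maximum in the table.

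Tigit, the inhibitory receptor gene, read 7.23 in naive, 7.79 in CXCR3- innate and 7.87 in CXCR3+ innate cells. Both innate arrays were above the naive array and close to each other. The difference from naive cells was 0.64 in CXCR3+ innate cells, or 1.56-fold, and 51 genes (0.500%) had a difference as high or higher. In CXCR3- innate cells it was 0.55, or 1.47-fold, and only 15 genes (0.147%) were as high or higher. Tigit therefore did not reach 2-fold in either comparison, yet its difference was among the highest of all genes on the CXCR3- innate array. The innate populations differed by 0.08, a size that 17.2% of genes reached in the same direction. The naive value lay 0.23 above 7, the level that the highest value of every probe set in the table reached. It was below the 7.70 that was the median of the olfactory and vomeronasal receptor genes on the naive array, whereas the CXCR3+ innate value of 7.87 was above the 7.72 there. Between their 5th and 95th percentiles, the means of those genes over the arrays ran from 7.01 to 9.20, a range that holds every Tigit and Cd226 value.

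Cd96 read 9.91 in naive, 9.53 in CXCR3- innate and 9.47 in CXCR3+ innate cells. The order was that of Cd226, but the innate arrays lay close together, 0.06 apart, and both were below the naive array. The difference from naive cells was -0.44 in CXCR3+ innate cells, 1.36-fold lower, and 208 genes (2.04%) were as low or lower. It was -0.38 in CXCR3- innate cells, 1.30-fold lower, and 602 genes (5.91%) were as low or lower. The CXCR3- innate value was at 86.6% of the way from naive to CXCR3+ innate, against 86.9% in Tigit. This place depended on the scaling. After quantile normalization the differences of Cd96 were -0.33 in CXCR3+ innate and -0.19 in CXCR3- innate cells, the innate arrays were 0.15 apart, and the CXCR3- innate value was at 56.2% of the way, against 89.6% in Tigit and 43.0% in Cd226.

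**Figure D2:**
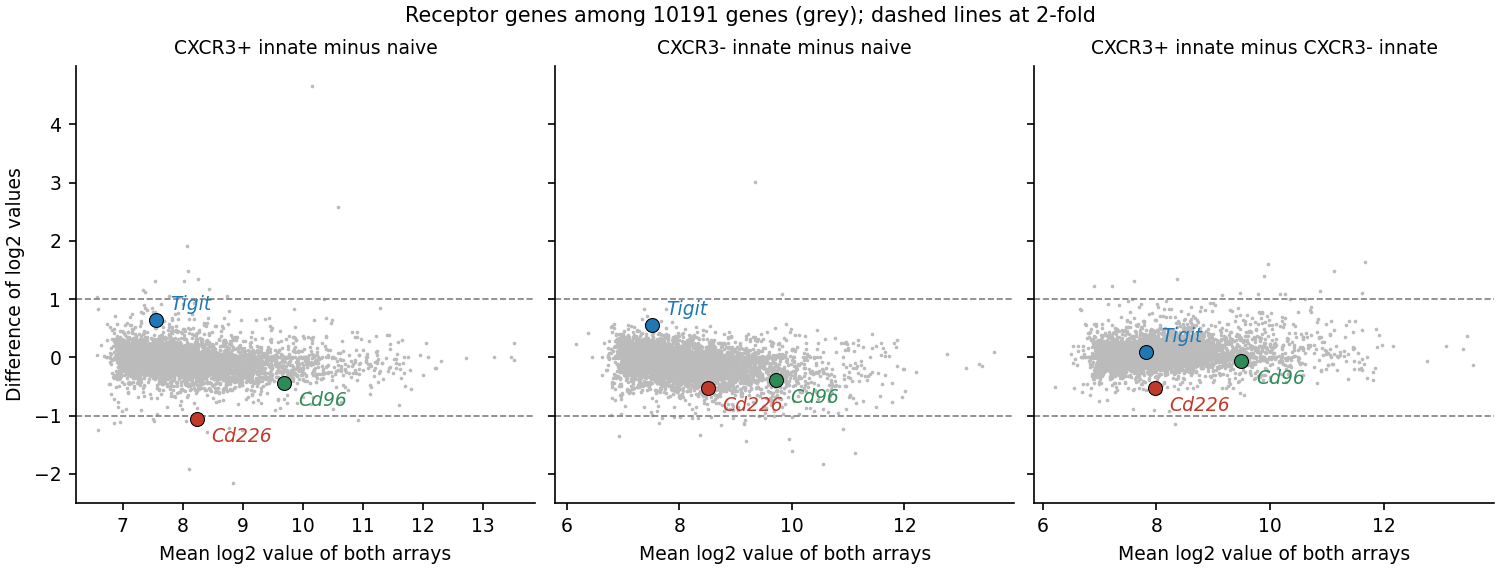
Each panel plots, for 1 comparison, the difference of log2 values (vertical axis) against the mean log2 value of both arrays (horizontal axis) for 10191 genes in grey, with the receptor genes in colour and dashed lines at a difference of 1 in either direction. Cd226 lies at -1.06, -0.53 and -0.53, Tigit at 0.64, 0.55 and 0.08, and Cd96 at -0.44, -0.38 and -0.06 in the 3 panels from left to right.

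The differences of the receptor genes were next set against each other within each array, where a factor common to the whole array drops out. A difference in spread between arrays does not drop out. The standard deviation over genes was 0.82 on the naive, 0.78 on the CXCR3+ innate and 0.75 on the CXCR3- innate array. Its part in the ratios was not tested. Tigit relative to Cd226 was 3.25-fold above naive in CXCR3+ innate cells, a shift of 1.70 on the log2 scale. The same ratio was 2.13-fold above naive in CXCR3- innate cells, a shift of 1.09. Between the innate populations it was 1.53-fold higher in CXCR3+ innate cells, a shift of 0.61 that came from -0.53 in Cd226 and 0.08 in Tigit. These folds are of the values as read. The naive Tigit value of 7.23 lay below 7.70, the median of the olfactory and vomeronasal receptor genes on that array. The CXCR3+ innate Cd226 value of 7.71 lay close to 7.72, the median of those genes on its own array. Those are other probes, and neither value is shown to be above its own background.

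Tigit relative to Cd96 was shifted by 1.08 in CXCR3+ innate and by 0.94 in CXCR3- innate cells against naive cells, and by 0.14 between the innate populations. Cd96 relative to Cd226 was shifted by 0.62 in CXCR3+ innate cells, by 0.15 in CXCR3- innate cells and by 0.47 between the innate populations. After quantile normalization the shift of Cd96 relative to Cd226 in CXCR3- innate cells was 0.24 in place of 0.15. That of Tigit relative to Cd96 was 0.76 in place of 0.94 there, and 0.97 in place of 1.08 in CXCR3+ innate cells. Both comparisons with naive cells use the same naive array, so they are not independent of each other.

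The ligands were examined as RNA in the same sorted cells, although the receptors mostly meet them on other cells. Of 8 listed ligands and further receptors of the family, 3 were measured, and none passed the rule of size in any comparison. Pvr, encoding the ligand CD155 shared by the 3 receptors, was at 7.23, 7.17 and 7.19 in CXCR3+ innate, CXCR3- innate and naive cells. Nectin2, encoding CD112, read 7.30, 7.36 and 7.10 in the same order. Nectin1, encoding a nectin that mouse CD96 also binds, read 7.77 on all 3 arrays, an equality that 34.19% of probe sets had. The measured ligand genes differed by at most 0.26 between any populations. That was Nectin2 in CXCR3- innate minus naive, where 232 genes (2.28%) were as high or higher. Nectin3, Nectin4, Crtam, Cadm1 and Pvrig were not analysed here.

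Of 16 listed signalling partners of CD226, 12 were measured and none passed the rule of size in any comparison. Their median difference was -0.03 in CXCR3+ innate minus naive, -0.17 in CXCR3- innate minus naive and 0.08 between the innate populations, beside medians of 0.00 over all genes in each. After quantile normalization the first was 0.02 and the second -0.03. The integrin chains of LFA-1 differed by at most 0.25, with Itgal at 9.67, 9.61 and 9.61 in CXCR3+ innate, CXCR3- innate and naive cells. Itgb2, the other chain, read 9.74, 9.49 and 9.58. Fyn, the kinase that phosphorylates CD226, read 9.34, 9.10 and 9.26. The integrin and kinase genes thus had no counterpart of the step seen in Cd226 between the innate populations.

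The largest differences in this list were those of genes shared with T cell receptor signalling. Vav1, a guanine nucleotide exchange factor, differed from naive cells by -0.27 in CXCR3+ innate and by -0.63 in CXCR3- innate cells. Lat, the adaptor of T cell receptor signalling, differed by -0.56 and -0.48. Pik3cd, a catalytic subunit of PI3 kinase, differed by -0.39 and -0.52. Plcg1, a phospholipase C, differed by -0.38 and -0.34. In CXCR3- innate minus naive 10 of the 12 were below 0 and 2 were equal, whereas in CXCR3+ innate minus naive 7 were below and 5 above 0. Over all 10191 genes, 3699 were below 0, 2204 above and 4288 equal in CXCR3- innate minus naive. In CXCR3+ innate minus naive 3490 were below, 2114 above and 4587 equal. After quantile normalization more genes were above 0 than below in both, 5885 against 4212 and 5487 against 4616.

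Of 10 listed partners of the inhibitory receptors, 9 were measured, and 0 passed the rule in any comparison. Inpp5d, encoding the lipid phosphatase SHIP1 that TIGIT recruits, read 8.66 on all 3 arrays. Such equal values were found for 34.19% of probe sets, so they are no sign particular to this gene. Grb2, the adaptor through which it does so and a gene of the list of CD226 partners, was at 8.13, 7.97 and 8.15 in CXCR3+ innate, CXCR3- innate and naive cells. Arrb2, encoding beta-arrestin 2, read 8.85, 8.65 and 8.85. These 3 partner genes differed between any populations by at most 0.20, less than Tigit did between naive and either innate population.

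Among the other genes of the inhibitory list, Csk, the kinase that restrains Src-family kinases, differed by -0.09 in CXCR3+ innate and by -0.46 in CXCR3- innate cells against naive cells. Ptpn6, encoding the phosphatase SHP-1, differed by 0.04 and -0.29, and Ptpn11, encoding SHP-2, by -0.31 and -0.32. The list median was 0.00 in CXCR3+ innate minus naive, -0.13 in CXCR3- innate minus naive and 0.00 between the innate populations, and the second was -0.07 after quantile normalization.

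**Figure D3:**
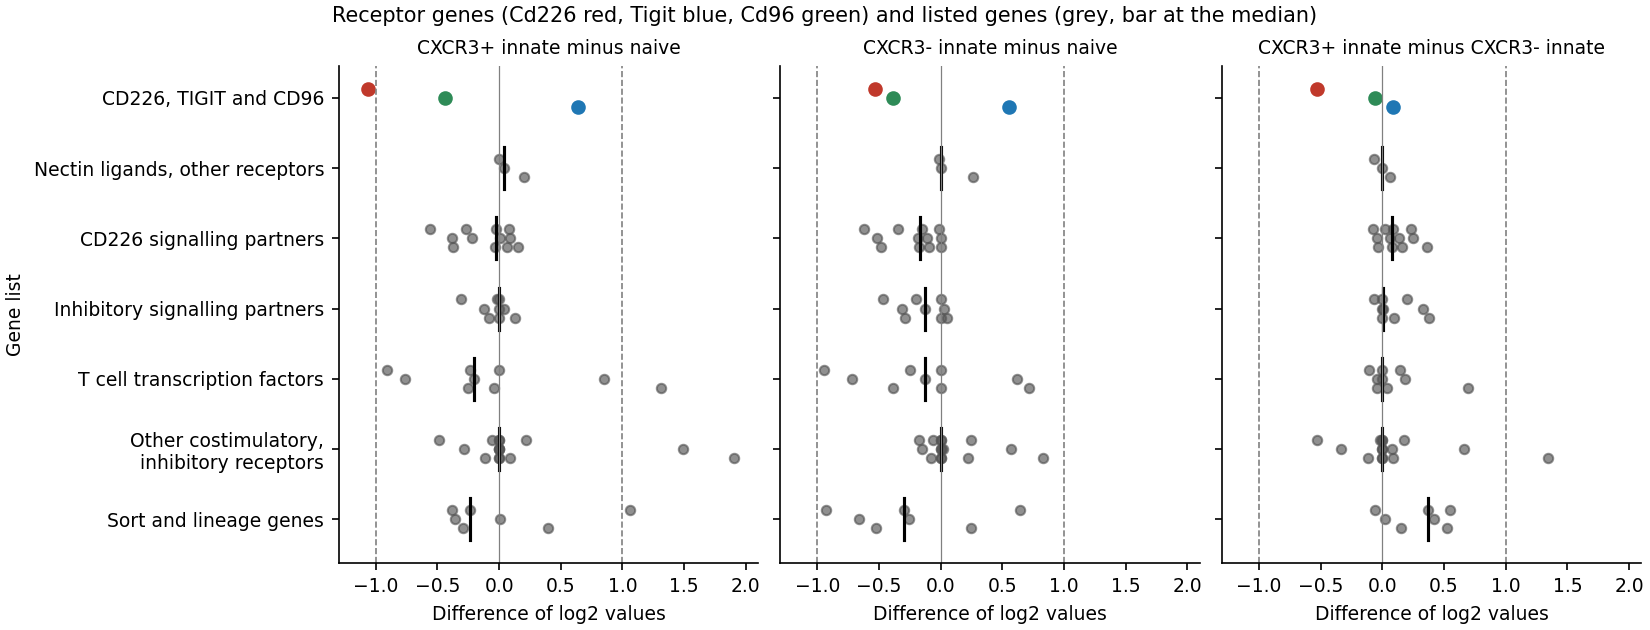
Each point is the difference of log2 values of 1 gene in the comparison named above the panel, with the receptor genes in colour in the top row, listed genes in grey below, the median of each list as a black bar and dashed lines at a difference of 1. Of the 3 coloured genes only Cd226 (red) is beyond a dashed line, at -1.06 in the left panel, and no measured ligand or signalling partner reaches one.

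Transcription factors of T cell differentiation were examined beside the receptors. Of 12 listed, 9 were measured. Tbx21, encoding T-bet, was the only one past the rule, 1.31 above naive in CXCR3+ innate cells, and was at 8.68, 7.98 and 7.37 in CXCR3+ innate, CXCR3- innate and naive cells. Its steps of 0.62 from naive to CXCR3- innate and 0.70 from there to CXCR3+ innate were, with the opposite sign, like those of Cd226. Eomes, the related T-box factor, read 7.92, 7.77 and 7.06, with the innate arrays nearer to each other than to naive, as in Tigit. Id2, an inhibitor of E proteins, read 9.08, 9.04 and 9.99, and Lef1, a factor of naive T cells, read 10.25, 10.30 and 11.01, with both innate arrays close together and below naive. The list median was -0.20 in CXCR3+ innate minus naive, -0.13 in CXCR3- innate minus naive and 0.00 between the innate populations, and after quantile normalization the first was -0.12 and the second -0.0002. With 3 arrays such likeness is a description and no relation between the genes was tested.

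Among 22 other costimulatory and inhibitory receptors, 15 were measured, 2 were called higher and 0 lower in CXCR3+ innate minus naive. They were Klrc1, encoding the inhibitory receptor NKG2A, at a difference of 1.91, and Slamf7, a receptor of the SLAM family, at 1.49. Klrc1 was also the 1 gene of the list called higher in CXCR3+ innate than in CXCR3- innate cells, at 1.34. No gene of the list was called in CXCR3- innate minus naive, where Slamf7 differed by 0.83 and Klrc1 by 0.57. Tigit, at 0.64 in CXCR3+ innate cells, differed less than Klrc1 and Slamf7, and at 0.55 in CXCR3- innate cells differed about as much as Klrc1.

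Of the 15 receptors, 5 were below 0 and 4 above in CXCR3+ innate minus naive. Slamf6, another SLAM family receptor, was at 7.87, 8.21 and 8.36 in CXCR3+ innate, CXCR3- innate and naive cells, the same order as Cd226 with a smaller range. Ctla4, an inhibitory receptor, read 7.23, 7.76 and 7.51. No measured receptor of the list was as low as Cd226 in CXCR3+ innate minus naive, where the lowest difference was the -0.49 of Slamf6. Between the innate populations, however, Ctla4 differed by -0.53, about as much as Cd226, and 26 genes (0.255%) were as low or lower. The naive value of Ctla4 lay between its innate values, unlike that of Cd226. The list median was 0.00 in each comparison, and in each the values of 6 of the 15 genes were equal.

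The CD3 and CD8 genes, which every CD8+ T cell expresses, were also mostly below naive. Cd3e differed from naive cells by -0.36 in CXCR3+ innate and by -0.30 in CXCR3- innate cells. Cd3g differed by -0.38 and -0.93, and Cd8a by -0.29 and -0.66. Cd3d differed by 0.01 and -0.52, and Cd8b1 by -0.24 and -0.26. In CXCR3+ innate cells Cd96, at -0.44, and Cd226, at -1.06, were both lower than any of the 5. In CXCR3- innate cells Cd96, at -0.38, and Cd226, at -0.53, lay within their range of -0.93 to -0.26. After quantile normalization Cd96, at -0.33, was within their range of -0.38 to 0.09 in CXCR3+ innate cells too. Between the innate populations 4 of these 5 genes had the higher value in CXCR3+ innate cells, by 0.55 in Cd3g, 0.53 in Cd3d, 0.37 in Cd8a and 0.02 in Cd8b1, and Cd3e differed by -0.06, whereas Cd226 differed by -0.53. Over all genes in that comparison, 2921 were higher in CXCR3+ innate cells, 2272 lower and 4998 equal. After quantile normalization 3 of the 5 were higher in CXCR3+ innate cells, and Cd226, at -0.57, was below their lowest value of -0.23. Over all genes 3393 were then higher and 6692 lower. The median of the 7 measured sort and lineage genes was 0.37 between the innate populations and 0.24 after quantile normalization, and -0.30 and -0.19 in CXCR3- innate minus naive.

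The genes nearest to each receptor gene in pattern were found among 5436 others with a value at or above an array median, by the Euclidean distance between log2 values centred on each gene's own mean over the 3 arrays. Nearest to Cd226 were Cpm, Als2cl, Dapl1, Tgfbr3 and Pecam1, at distances of 0.04 to 0.13. Pecam1, the adhesion molecule CD31, was at 7.80, 8.23 and 8.68 in CXCR3+ innate, CXCR3- innate and naive cells. Tgfbr3, a co-receptor for TGF-beta, read 6.85, 7.39 and 7.76, and Cpm, a membrane carboxypeptidase, read 6.97, 7.57 and 8.06. Each stepped down in the same order, as genes picked for so small a distance to Cd226 must, and the match rests on 3 points. On the CXCR3+ innate array Tgfbr3 and Cpm lay below 7. Both reached an array median, and so entered the search, only through their naive value.

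Nearest to Tigit were Ifna7, Gm13275, Mir3471-1, A430093F15Rik and Cxcr5, at distances of 0.04 to 0.10. Cxcr5, the chemokine receptor of B cell follicles, was at 7.94, 7.76 and 7.15 in CXCR3+ innate, CXCR3- innate and naive cells. Ifna7, an interferon alpha gene, read 8.15, 8.02 and 7.51. Ifna7, Cxcr5 and A430093F15Rik reached an array median, and so entered the search, only through innate values. The 5 thus include a chemokine receptor, a microRNA gene and an interferon alpha gene. Nearest to Cd96 were Tlk2, 4632427E13Rik, Osbpl8, Nup153 and Prkcb, at distances of 0.01 to 0.02. Nup153, a nuclear pore protein, read 9.90, 9.99 and 10.35.

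The patterns differed in how many genes shared them. Within 25% of the size of the receptor gene's own pattern, a limit chosen after the values were seen, lay 7 genes (0.129%) for Cd226, 8 (0.147%) for Tigit and 150 (2.76%) for Cd96. The sizes of the patterns, measured as the distance from a gene with equal values, were 0.75 for Cd226, 0.49 for Tigit and 0.34 for Cd96. Small patterns lie nearer to the bulk of genes, and the pattern of Cd96 was the smallest.

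**Figure D4:**
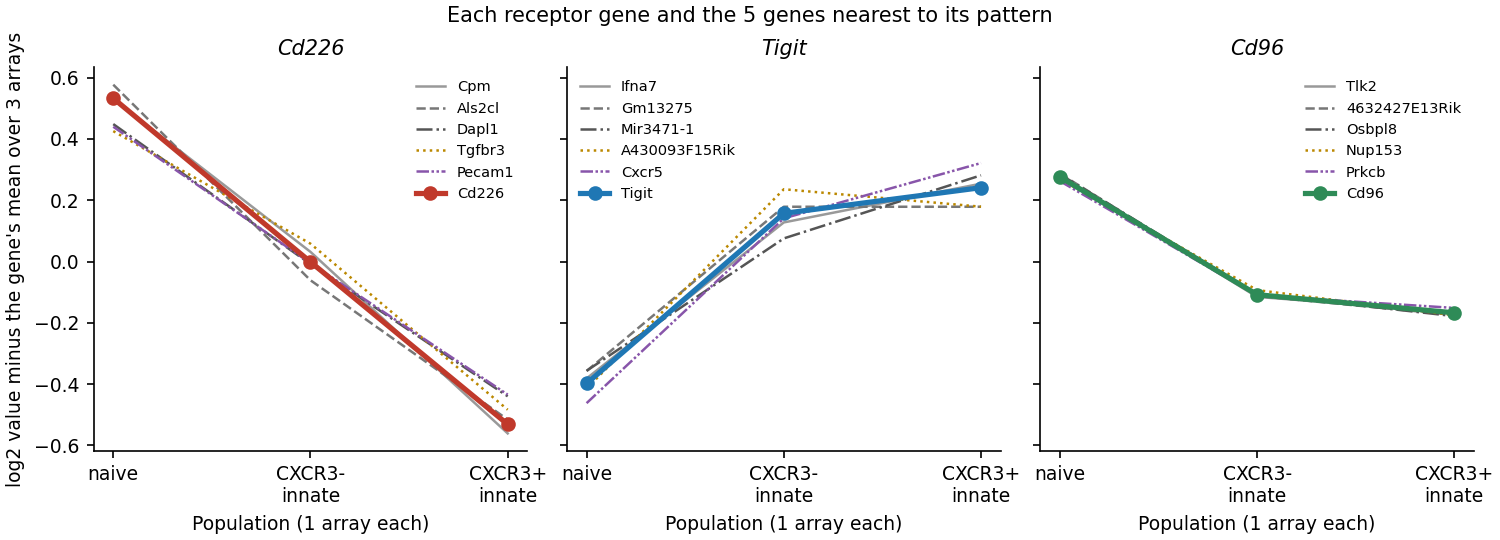
Each panel plots 1 receptor gene (thick line) and the 5 genes nearest to it, as the log2 value minus the gene's mean over 3 arrays, in naive, CXCR3- innate and CXCR3+ innate cells with 1 array each; lines only join the values of a gene. Cd226 and its neighbours step down through all 3 populations, while Tigit and Cd96 have both innate populations nearer to each other than to the naive one; among the neighbours of Tigit, Mir3471-1 has the widest innate gap, 0.21.

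Other cells that carry these receptors were looked for by their markers, since natural killer cells, regulatory T cells and platelets also express members of the family. Of 8 natural killer cell markers 3 were measured, and their summed linear levels were 490.11, 508.83 and 477.26 in CXCR3+ innate, CXCR3- innate and naive cells. Of 7 markers of CD4 and regulatory T cells 2 were measured, Foxp3 and Ctla4, and their sum was 307.80, 380.31 and 340.19. Of 7 platelet markers 4 were measured, and their sum was 719.06, 719.06 and 712.08. The measured markers of these 3 lists all read between 6.93 and 7.86 on the log2 scale. Markers of myeloid cells, 4 of 10 measured, summed to 739.07, 803.87 and 760.01, and the 1 measured gamma-delta T cell marker of 6 read 7.75, 7.79 and 7.75 on the log2 scale. Of 8 listed B cell markers 0 were measured, so B cells could not be examined in this way. Cd4 and Klrb1c were not analysed here. No measured marker was past the rule of size, and the part of other cells in the values of the receptor genes was not tested.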

How the data were processed

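The authors deposited log2 expression values of 12417 probe sets on 3 arrays. The submitters' processing notes name RMA and Affymetrix Expression Console, with no version. RMA corrects background, brings arrays to a common distribution and summarises probes per probe set. The gene values analysed here still differed in spread between the arrays, as given above. In the table the highest value of every probe set was at least 7.00002. A gene without a listed value therefore has no value here.

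The platform annotation gave 1 symbol for 10576 probe sets, several for 1108 and none for 733. Probe sets of a gene were averaged, which gave 10191 genes, and each receptor gene had 1 probe set. With 1 array per population, differences were judged by the rule of size given above, and the number of arrays limits the precision. The code of the rule was tested on simulated data, which gives no error rate for these arrays. Genes were named by a rule: the receptor genes, the ligand list, up to 4 genes of every other list with the largest absolute difference, and the 5 nearest patterns. Cxcr3, the other CD3 and CD8 genes, Itgal, Itgb2, Fyn, Inpp5d, Grb2, Runx3 and Foxp3 were named besides, for their roles. The receptor genes, lists and comparisons were chosen with earlier results of these data known. Promoter windows came from RefSeq, assembly GRCm38.p6, and no build is given for the array.

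The rule was also run without its level filter, with that filter at percentile 75, and with 3-fold or 1.5-fold as the threshold. Arrays were rescaled by median centring, by quantile normalization or by cyclic loess with limma 3.58.1 in R 4.3.3. Further alternatives added 16 to linear values, took the brightest probe set of each gene, or kept probe sets apart. Other steps used pandas 2.3.3 and numpy 2.4.6 in Python 3.11.15.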

Additional observations from a re-analysis of the deposited data

How the results depend on the processing

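Each receptor gene has 1 probe set, so only the rescalings could turn a difference, and all 27 differences of Cd226, Tigit and Cd96 kept their direction under the 3 rescalings. Cd226 in CXCR3+ innate minus naive ranged from -1.06 to -0.99. It did not pass after quantile normalization, at -0.99, or at a 3-fold threshold, at -1.06. Tigit in the same comparison, at 0.64, passed at a 1.5-fold threshold. Its range was 0.59 to 0.66, and that of Cd96 was -0.44 to -0.33. Ratios between the receptor genes could change under 3 settings, quantile normalization, cyclic loess and the linear offset, and all 27 kept their direction. Quantile normalization moved Tigit relative to Cd96 to 0.97 in CXCR3+ innate minus naive and to 0.76 in CXCR3- innate minus naive, and the linear offset moved Tigit relative to Cd226 in CXCR3+ innate minus naive to 1.60. The cause was not tested. Counts of called genes followed the threshold. In CXCR3+ innate minus naive, 51 were higher and 71 lower at 1.5-fold, and 3 and 2 at 3-fold. In CXCR3- innate minus naive they were 10 and 163 at 1.5-fold, and 1 and 3 at 3-fold, with 9 lower after quantile normalization and 15 lower with the linear offset. Between the innate populations they were 102 and 8 at 1.5-fold, and 2 and 0 at 3-fold. Quantile normalization also moved the median of other receptors in CXCR3- innate minus naive from 0.00 to 0.11. No paired analysis was possible because each population has 1 array. Low values, such as those of Tigit, lie near the lower limit of the table.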
